A study of Mus musculus with 4 samples.

Results

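Laminin, collagen and integrin genes were compared between 2 populations sorted from mouse colonic crypts. The members were the genes whose name in the array files began as a laminin chain (Lama, Lamb or Lamc with a number), a collagen chain (Col, a number and a) or an integrin subunit (Itga or Itgb). These were 84 of the 28306 gene names on the array, measured by 172 probes in 208 spots. They comprised 52 matrix chains (11 laminins and 41 collagens), 26 integrin subunits (17 alpha and 9 beta) and 6 genes that share the start of the name but encode no chain: Cert1 (listed as Col4a3bp), Nmrk2 (listed as Itgb1bp3), Itgb1bp1, Itgb1bp2, Itgb3bp and Itgbl1.

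Laminins are secreted trimers of an alpha, a beta and a gamma chain, and with type IV collagen they form the basement membrane on which the crypt epithelium sits. Fibrillar collagens such as type I and type III are made mainly by fibroblasts of the stroma. Integrins are membrane receptors of an alpha and a beta subunit that bind these proteins and tie them to the actin or keratin cytoskeleton inside the cell. In the intestinal epithelium the pair of Itga6 and Itgb4 is the laminin receptor of hemidesmosomes, the pair of Itga2 and Itgb1 binds collagen, and the pair of Itga3 and Itgb1 binds laminin.

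Both RNAs came from crypt cells of normal colon of adult mice carrying the Lgr5_EGFP-ires-CreERT2 knockin, in which GFP is under control of the Lgr5 promoter. One population was sorted for GFP and is labelled Lgr5-GFP; the other was sorted with a PE-conjugated anti-CD24 antibody and is labelled CD24hi. Each of 2 replicates was hybridised to a 2-colour array and again with the dyes swapped, giving 4 arrays. Whether the replicates were different animals is not stated, and the p-values reflect no more than the scatter of these 2 samples, which could be technical in origin. In bulk RNA, fewer cells of a type and less RNA per cell cannot be told apart.

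The sort markers went against the labels. Ratios were taken with RNA labelled Lgr5-GFP as numerator and RNA labelled CD24hi as denominator. Lgr5, the gene that drives the GFP, had a log2 ratio of -3.41, which is 10.6-fold lower, and Cd24a, the antibody's antigen, had 2.12, which is 4.35-fold higher (limma adjusted p = 0.000621 and 0.000775). The directions below are those of the labels. The dye swap of replicate 1 also stood apart: 75.3% of its gene spots were marked as non-uniform or outliers by the scanner software, against at most 0.399% on the other 3 arrays. Before background subtraction its median gene signal was 4377 in RNA labelled Lgr5-GFP and 1358 in RNA labelled CD24hi. On the other arrays the medians lay between 94.2 and 197. Marked spots were left out, which removed 86.1% of the member spots on that array, so that 9 of the 41 members tested had a value on it. The number of arrays limits the precision.

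The probes of the 3 members with the largest differences are shown by their first 30 of 60 bases, because the values below are the hybridisation to these sequences. The Lamb1 probe lies at chr12:32012684-32014030 (mm9, plus strand), a span of 1347 bases, so its match to the genome is split by a gap. The Col8a1 probes lie at chr16:57627033-57627092 and chr16:57624471-57624530 (minus strand), and the Itga6 probes at chr2:71695973-71696032, chr2:71692909-71692968 and chr2:71694194-71694253 (plus strand).
Lamb1: aaagactctagatggcgaacttgatgaaaa
Col8a1, probe reported: gctgctggactctatgccgggcaatatgtc
Col8a1, other probe: cagttgtcctcaaatattttacagaaacaa
Itga6, probe reported: tctggagtatcttggagcctagcacactgg
Itga6, probe upstream: attctattcctgttgccgtcacaaaataag
Itga6, probe between them: gacacccagtatggacctacagtttcaact

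RefSeq promoters (GRCm38.p6) matched 61 of the 84 members and 11 of the 14 that differed. The 250 bases upstream of the start are shown for 3 members that were higher in RNA labelled Lgr5-GFP (Lamb1, Col8a1 and Itgb5) and for the collagen with the lowest ratio (Col16a1), each 5′ to 3′ on the strand of the gene. Capitals mark GC boxes, GGGCGG on either strand (read as CCGCCC on the reverse strand).
Lamb1, chr12:31265043-31265292, plus strand: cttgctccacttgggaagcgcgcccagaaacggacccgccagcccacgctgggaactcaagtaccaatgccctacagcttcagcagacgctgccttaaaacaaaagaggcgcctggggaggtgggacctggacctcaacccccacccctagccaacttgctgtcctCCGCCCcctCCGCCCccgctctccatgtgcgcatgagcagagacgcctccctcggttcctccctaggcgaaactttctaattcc
Col8a1, chr16:57754738-57754987, minus strand: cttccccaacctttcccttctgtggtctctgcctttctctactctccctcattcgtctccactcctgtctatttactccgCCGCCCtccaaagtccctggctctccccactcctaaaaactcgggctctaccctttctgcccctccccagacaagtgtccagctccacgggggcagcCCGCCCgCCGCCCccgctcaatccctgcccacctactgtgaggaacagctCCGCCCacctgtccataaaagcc
Itgb5, chr16:33829415-33829664, plus strand: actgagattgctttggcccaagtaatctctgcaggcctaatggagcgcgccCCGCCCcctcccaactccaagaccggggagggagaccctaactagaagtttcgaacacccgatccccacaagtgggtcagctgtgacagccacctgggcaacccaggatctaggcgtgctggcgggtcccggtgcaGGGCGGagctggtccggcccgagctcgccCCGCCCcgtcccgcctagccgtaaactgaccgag
Col16a1, chr4:130047590-130047839, plus strand: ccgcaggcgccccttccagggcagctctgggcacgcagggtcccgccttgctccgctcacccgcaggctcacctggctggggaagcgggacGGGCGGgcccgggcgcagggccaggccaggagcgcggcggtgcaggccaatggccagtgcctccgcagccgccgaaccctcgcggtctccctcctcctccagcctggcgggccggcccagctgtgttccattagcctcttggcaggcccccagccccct

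All 4 promoters held a GC box, with 2 in Lamb1, 4 in Col8a1, 3 in Itgb5 and 1 in Col16a1. Of 32851 RefSeq promoter windows of this length, 32.7% held at least 1. The sequence TATAAA, present in 12.4% of all windows, was in none of the 4. The E box CANNTG, in 66.2% of all windows, occurred in each of the 4, and CTTTGA, in 13.8% of all windows, in none. All motifs were searched on both strands. Of 34 promoters of the members tested, 18 held a GC box, 1 TATAAA, 20 an E box and 3 CTTTGA. The GC content was 62% in Lamb1, 60.8% in Col8a1, 65.2% in Itgb5 and 75.6% in Col16a1, against a median of 52.4% over all windows. The member that was lower therefore held the same kinds of match as the members that were higher.

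Of the 84 members, 41 were measured well enough to test, that is, well above background on every array with a value in at least 1 RNA. Of these, 25 met this on every array in both RNAs, 13 only in RNA labelled CD24hi and 3 only in RNA labelled Lgr5-GFP. Members counted under 1 RNA could still be above background on some arrays in the other. The other 43 passed in neither. All genes tested leaned the same way, with 11934 meeting it in both RNAs, 2577 only in RNA labelled CD24hi and 291 only in RNA labelled Lgr5-GFP. At an adjusted p under 0.05 (limma, 2 replicate ratios against 0, adjusted over all 14802 genes tested), 14 of the 41 differed, which is 34.1% against 47.2% of all genes tested. RNA labelled Lgr5-GFP had 10 of them higher, where 21.7% of all genes were higher, and 4 lower, where 25.5% of all genes were lower. With median centring in place of loess 10 members were lower and 7 higher; that setting shifted the all-gene median to -0.25 from -0.07. The 3 members that passed only through RNA labelled Lgr5-GFP (Lamb1, Itga2 and Col20a1) were all called higher there, a direction that this filter favours. Refitted over genes above background in both RNAs, 11 of 25 members were called, 7 higher and 4 lower, 44% against 52.2% of all genes in that fit. A difference of at least 2-fold the same way in both replicates was seen for 5 members, 12.2% against 12% of all genes.

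Without the dye swap of replicate 1, 21 of the 41 were called, 11 higher and 10 lower, against 57.7% of all genes. Without the first array of replicate 1 only 9 members could be tested, and 3 of them were called, 33.3% against 16.3% of all genes. The members lower in RNA labelled Lgr5-GFP thus numbered between 1 and 10 depending on which array was left out.

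**Figure D1:**
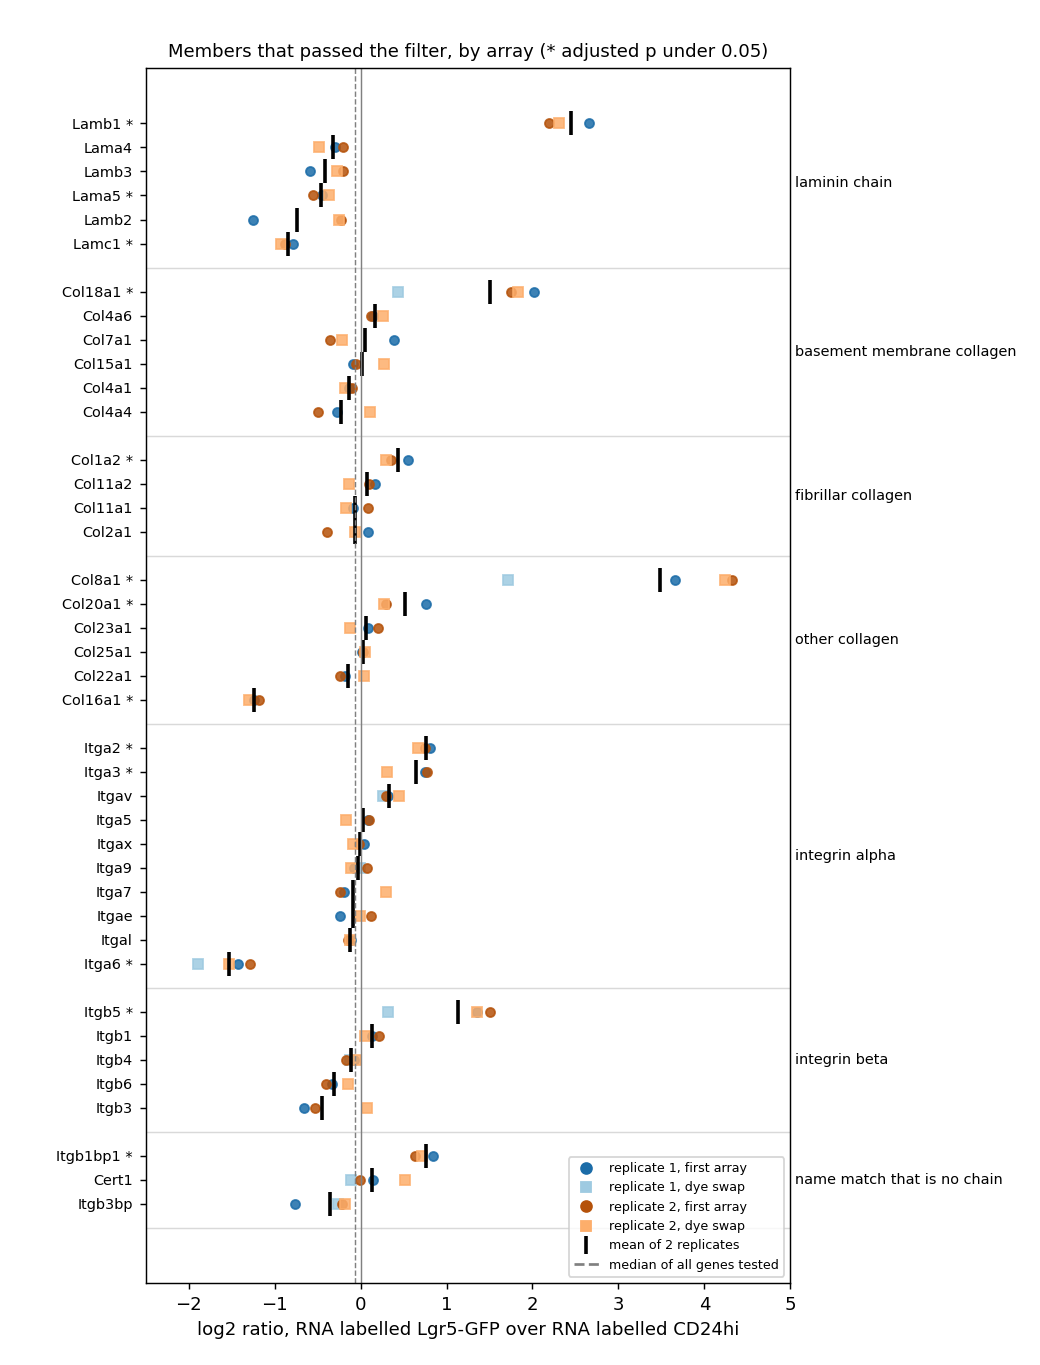
Log2 ratio of both RNAs, labelled Lgr5-GFP over labelled CD24hi (x axis) for the members tested, with 1 left out (y axis, by class), with a point for each array that gave a value and a black bar at the mean of 2 replicates. Col8a1 and Lamb1 lie far to the right on the arrays shown, Itga6 and Col16a1 to the left, and most other members lie within 0.5 of zero; the dye swap of replicate 1 is closer to zero for Col8a1, Col18a1 and Itgb5.

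Among the laminins, 7 of 11 chains were tested and 4 differed, 2 in each direction (57.1%, against 47.2% of all genes). Lamb1 was higher in RNA labelled Lgr5-GFP, and Lamc1 and Lama5 were lower. The class median was -0.41 against -0.07 for all genes. Lama1 and Lama2 were above background on none of the 3 arrays other than the dye swap of replicate 1, in either RNA, while Lama3 was so on 2 and 2 of them and Lamc3 on 1 and 1.

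Lamb1, the beta chain of the main laminins of the epithelial basement membrane, had log2 ratios of 2.65 on the first array of replicate 1, and 2.20 and 2.31 on the pair of arrays of replicate 2, with no value on the dye swap of replicate 1. Its background-subtracted signals on those arrays were 285, 198 and 247 in RNA labelled Lgr5-GFP and 25.8, 24.4 and 37.3 in RNA labelled CD24hi. The RNAs did not overlap. Lamb1 was not well above background in RNA labelled CD24hi on any of the 3 arrays, so its difference was taken as a bound. In the main setting this was 5.48-fold higher in RNA labelled Lgr5-GFP (adjusted p = 0.000647, limma). The bound was the mean of normalized log2 values of the brighter RNA, 9.58, less the higher of the dim probe's own signal and the lowest signal well above background on each array, 7.13. The dim probe's own signal was the one used throughout, so the bound equals the measured ratio. That log2 ratio was 2.45 ± 0.15 (limma SE, n = 2 replicates). It ranged from 1.78 to 6.29 under the alternative settings, with the highest limma adjusted p 0.0579. The 5.48-fold is therefore no minimum across settings.

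Lamb3, the beta chain of the laminin of hemidesmosomes, had log2 ratios of -0.59, -0.20 and -0.27 on the same 3 arrays. All were below zero, but Lamb3 was not called (mean -0.41 ± 0.14 limma SE, n = 2; adjusted p = 0.061).

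Lamc1, the gamma chain that pairs with Lamb1 or Lamb2, had ratios of -0.79, -0.88 and -0.93, a mean of -0.85 ± 0.12 (SE, n = 2; adjusted p = 0.00398, limma). Its signals were 106, 119 and 124 in RNA labelled Lgr5-GFP and 301, 352 and 320 in RNA labelled CD24hi, with no overlap. Lama5, the alpha chain of the same trimers in adult epithelium, had -0.45, -0.55 and -0.37 (mean -0.46 ± 0.12 SE; adjusted p = 0.0273) and was not called in 3 of 11 alternative settings, where the highest adjusted p was 0.173. Lama5 was above background on 2 of 3 arrays in RNA labelled Lgr5-GFP and on 3 of 3 in RNA labelled CD24hi. Lamb1, Lamc1 and Lama5 can occupy 1 trimer; only Lamc1 of these was above background on all 3 arrays in both RNAs.

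Lamb2, the alternative to Lamb1, gave -1.25 on the first array of replicate 1 but -0.22 and -0.25 in replicate 2, so the replicates disagreed in size. Its mean was -0.74 ± 0.25 (SE, n = 2; adjusted p = 0.0547). Lama4, a chain of vessel and muscle laminins, had -0.29, -0.20 and -0.48 (mean -0.32; adjusted p = 0.081) and was above background on 0 of 3 arrays in RNA labelled Lgr5-GFP and 3 of 3 in RNA labelled CD24hi. As a bound in the main setting Lama4 was 1.19-fold lower in RNA labelled Lgr5-GFP. Its log2 ratio ran from -1.53 to -0.20 over the alternative settings. Lamb2, Lamb3 and Lama4 were each called lower without the dye swap of replicate 1 (adjusted p = 0.025, 0.0283 and 0.0404), although none of them has a value on it.

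Of the collagens of basement membranes and their anchors, 6 of 10 were tested and 1 was called (16.7%, against 47.2% of all genes). Col18a1, which carries the endostatin fragment at its end, had ratios of 2.01, 0.44, 1.75 and 1.83 on the 4 arrays in the order replicate 1 first and swap, replicate 2 first and swap. All 4 were above zero, and the dye swap of replicate 1 gave the lowest. The mean was 1.51 ± 0.17 (SE, n = 2), 2.85-fold higher in RNA labelled Lgr5-GFP (adjusted p = 0.00199, limma), and 1.90 without that swap. A second probe gave 1.22, 0.79 and 0.89 on the 3 arrays other than the swap. Col18a1 was called in all 13 alternative settings, between 1.08 and 2.09.

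The type IV chains, the network of the basement membrane itself, were close to zero where measured. Col4a1 had -0.14, -0.10 and -0.18 (mean -0.14 ± 0.12 SE, n = 2; adjusted p = 0.394), Col4a6 had 0.15, 0.12 and 0.26 (mean 0.17; adjusted p = 0.304), and Col4a4 had -0.27, -0.49 and 0.11 (mean -0.23; adjusted p = 0.177). Signs were mixed across arrays for Col4a4. Col4a2, Col4a3 and Col4a5 were above background on none of the 3 arrays in either RNA, and neither was Col17a1, the collagen of hemidesmosomes. Col7a1, of anchoring fibrils, had 0.39 in replicate 1 and -0.29 in replicate 2, opposite signs (adjusted p = 0.85).

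Of the remaining 20 non-fibrillar collagens 6 were tested and 3 called (50%, near the 47.2% of all genes). Col8a1, a short-chain network collagen, had the highest ratio of all members: 3.65, 1.71, 4.32 and 4.24 on the 4 arrays. Its signals in RNA labelled Lgr5-GFP were 10454, 18867, 10016 and 12228, and in RNA labelled CD24hi 1187, 2046, 680 and 591. Every array was higher in RNA labelled Lgr5-GFP, and the dye swap of replicate 1 gave the smallest ratio. The mean was 3.48 ± 0.36 (SE, n = 2), 11.2-fold (adjusted p = 0.00161, limma), and 3.97 without that swap. The other probe gave 2.50, 0.62, 1.86 and 2.996, the same sign at a smaller size. The difference of 1.49 between the means of both probes was the widest among the 12 members with several probes that passed.

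Col16a1, a collagen associated with fibril surfaces, was lower in RNA labelled Lgr5-GFP, with ratios of -1.24, -1.18 and -1.29. Its signals were 288, 187 and 129 against 1090, 670 and 429. The arrays differed little and the RNAs did not overlap within an array. The mean was -1.24 ± 0.12 (SE, n = 2), 2.36-fold lower (adjusted p = 0.00136, limma). Col20a1, another fibril-associated collagen, had 0.76, 0.29 and 0.27 (mean 0.52; adjusted p = 0.0415) on a probe above background on all 3 arrays in RNA labelled Lgr5-GFP but on 1 of 3 in RNA labelled CD24hi, so that it passed only through the RNA where it was high. It lost its call in 6 of 11 alternative settings, where its highest adjusted p was 0.176. Col22a1, Col23a1 and Col25a1 lay between -0.14 and 0.06 and were not called; Col23a1 was above background in RNA labelled CD24hi alone.

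Of 11 fibrillar collagens 4 were tested and 1 was called (25%, against 47.2% of all genes). Col1a2, a chain of type I collagen, had 0.55, 0.35 and 0.30 (mean 0.44 ± 0.13 SE, n = 2; adjusted p = 0.039, limma). Its signals were 173, 61.7 and 59.3 in RNA labelled Lgr5-GFP and 160, 44.7 and 65.0 in RNA labelled CD24hi, so before normalization the RNAs were of like brightness and 1 of 3 arrays pointed the other way. Col1a2 was not called in 4 of 12 alternative settings, with ratios from 0.20 to 0.92 and a highest adjusted p of 0.284. Col11a2, Col11a1 and Col2a1, best known from cartilage, had means of 0.08, -0.06 and -0.07 and were not called.

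The stromal collagens serve as a check on purity, since these chains are made mainly by cells of the stroma and not by epithelium. Of 11 such collagens (Col1a1, Col1a2, Col3a1, Col5a1, Col5a2, Col6a1, Col6a2, Col6a3, Col12a1, Col14a1 and Col15a1) 2 passed the filter, Col1a2 and Col15a1, and Col15a1 had a ratio of 0.01. On the 3 arrays other than the dye swap of replicate 1, 5 of them (Col5a2, Col6a1, Col6a3, Col12a1 and Col14a1) were above background on no array in either RNA. Col1a1, the partner chain of Col1a2, was above background on 0 arrays in RNA labelled Lgr5-GFP and 2 in RNA labelled CD24hi, and Col3a1 on 0 and 1. Col5a1 was above background on 2 and 2 arrays, Col6a2 on 1 and 1, and Col15a1 on 1 and 3.

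On the same 3 arrays the signals of the 11 stromal collagens were summed, as parts in 1000000 of all gene signal. In the order replicate 1 first, replicate 2 first and replicate 2 swap, they were 25.8, 34.6 and 13.5 in RNA labelled Lgr5-GFP. In RNA labelled CD24hi they were 13.1, 15.8 and 24.5. The ranges overlapped and the direction turned with the dyes, so these sums give no direction between the RNAs. The 8 epithelial markers (Epcam, Cdh1, Krt8, Krt18, Krt19, Vil1, Cldn7 and Elf3) were above background on all 3 arrays in both RNAs and summed to 7062 to 8557 and 8906 to 10477. The 13 genes of fibroblasts and smooth muscle summed to 71.6 to 97.5 and 55.5 to 90.5; Pdgfra, Dcn, Lum, Dpt, Postn, Pdpn and Des were above background on 0 arrays, while Vim, Pdgfrb, Acta2 and Tagln were so on all 3 in both RNAs. The 7 endothelial genes summed to 13.3 to 25.6 and 18.4 to 23.6, with Pecam1, Cdh5, Kdr and Emcn on 0 arrays, Vwf and Plvap on 3 and 3, and Tek on 1 and 3. Vwf was called lower in RNA labelled Lgr5-GFP (-0.53, limma adjusted p = 0.0176). So were Pdgfrb (-0.46) and Thy1 (-0.48), at limma adjusted p = 0.0339 and 0.0255, Thy1 being above background on 1 and 3 arrays. Tagln was called higher (0.57, limma adjusted p = 0.0337). Of the epithelial markers, Krt8 (-0.61) and Elf3 (-0.44) were called lower, at limma adjusted p = 0.0185 and 0.0296. The 13 leukocyte genes summed to 20.1 to 46.7 and 19.4 to 34.1. Ptprc, which marks all leukocytes, was above background on 2 of 3 arrays in RNA labelled Lgr5-GFP and 0 in RNA labelled CD24hi. Every other leukocyte gene whose array counts differed was above background on more arrays in RNA labelled CD24hi. In RNA labelled Lgr5-GFP 7 of the 13 were above background on no array, against 4 in RNA labelled CD24hi. On the dye swap of replicate 1, where 10 of 10 epithelial probes but 2 of 22 stromal collagen probes had a value, the sums in RNA labelled Lgr5-GFP and RNA labelled CD24hi were 63.1 and 45.0 for the stromal collagens, 4327 and 7918 for the epithelial genes, 353 and 236 for fibroblasts and smooth muscle, 125 and 86.8 for endothelium, and 189 and 127 for leukocytes. The part of other cells in the values of Col1a2 and Lama4 was not tested.

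**Figure D2:**
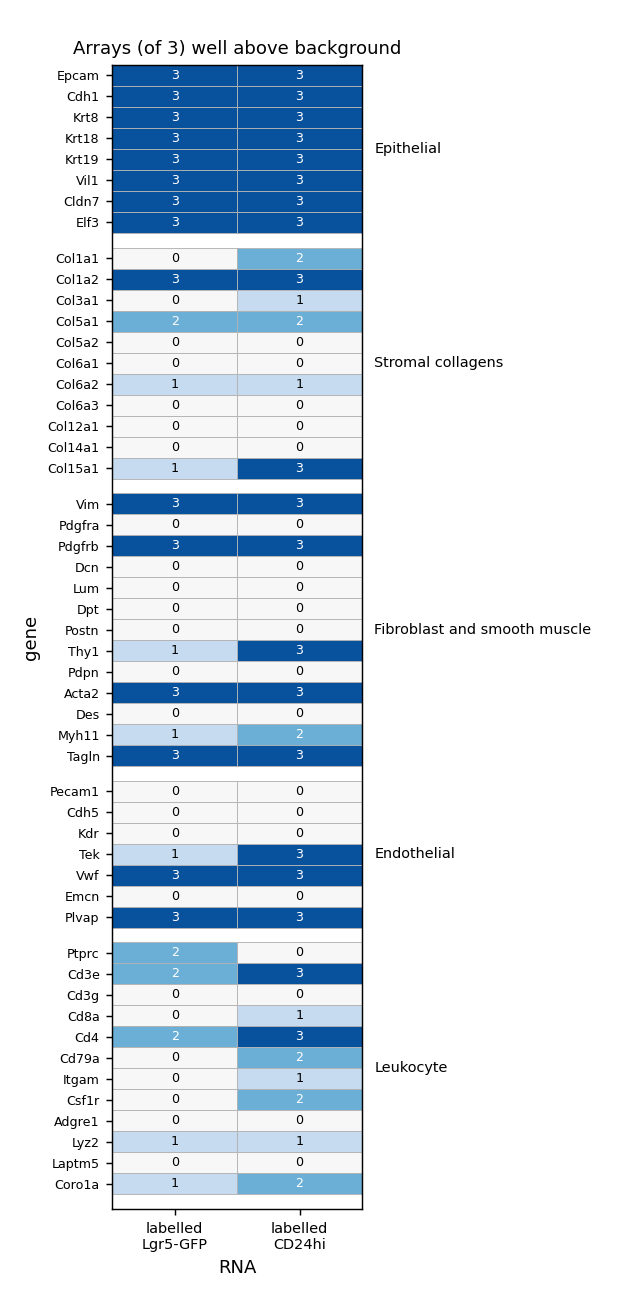
Number of arrays, of the 3 other than the dye swap of replicate 1, on which each marker gene (rows, by cell type, with 1 leukocyte gene left out) was well above background in each RNA (columns). The 8 epithelial genes read 3 in both columns, and Col5a2, Col6a1, Col6a3, Col12a1 and Col14a1 read 0 in both.

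Of the integrin alpha subunits 10 of 17 were tested and 3 were called (30%, against 47.2% of all genes). In RNA labelled Lgr5-GFP 2 were higher and 1 lower. Itga6, the laminin-binding subunit that pairs with Itgb4 or Itgb1, had ratios of -1.43, -1.88, -1.28 and -1.53 on the 4 arrays. Its signals were 2535, 5255, 717 and 2684 in RNA labelled Lgr5-GFP and 10145, 6986, 2566 and 7311 in RNA labelled CD24hi. All 4 arrays were lower in RNA labelled Lgr5-GFP. The mean was -1.53 ± 0.13 (SE, n = 2), 2.89-fold lower (adjusted p = 0.00104, limma), and -1.42 without the dye swap of replicate 1. The 2 other Itga6 probes gave -0.88, -0.86 and -1.505, and -1.16, -0.95 and -0.97, on the remaining arrays, so all 3 probes had the same sign.

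Itga2, the collagen-binding subunit, had 0.81, 0.75 and 0.67 (mean 0.76 ± 0.12 SE, n = 2; adjusted p = 0.00541, limma), with all arrays higher in RNA labelled Lgr5-GFP. It was above background on all 3 arrays there but on 1 of 3 in RNA labelled CD24hi, so it passed only through the RNA where it was high, and its ratio ran from 0.49 to 2.25 over the alternative settings. Itga3, a laminin-binding subunit, had 0.75, 0.77 and 0.30 (mean 0.65 ± 0.13 SE; adjusted p = 0.0111), and its second probe 1.03, 0.96 and 0.70. Itga3 was not called in 3 of 12 alternative settings, with a highest adjusted p of 0.163. The laminin-binding subunits Itga6 and Itga3 were thus called in opposite directions.

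Itgav, the subunit of receptors for the RGD motif, had 0.32, 0.26, 0.30 and 0.44, all above zero, with a limma adjusted p of 0.0734. The 0.26 came from the dye swap of replicate 1, where its signals were 20746 in RNA labelled Lgr5-GFP and 5634 in RNA labelled CD24hi. On the other arrays they lay between 62.1 and 113. Without that swap Itgav was called at a limma adjusted p of 0.0301. The integrins of leukocytes were near the limit of detection. Itgal and Itgae had means of -0.12 and -0.09 (adjusted p = 0.457 and 0.619), and each was above background on 2 arrays in RNA labelled Lgr5-GFP and 3 in RNA labelled CD24hi. Itgb2 was above background on 2 and 2 of 3 arrays, Itgb7 on 1 and 2, and Itgam on 0 and 1. Itga8, Itga10, Itga2b and Itgb8 were above background on none of the 3 arrays.

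Of the beta subunits 5 of 9 were tested and 1 was called (20%, against 47.2% of all genes). Itgb5, which pairs with Itgav, had 1.36, 0.32, 1.501 and 1.36 on the 4 arrays. Its signals were 2732, 17969, 1142 and 1214 in RNA labelled Lgr5-GFP and 1553, 4814, 554 and 470 in RNA labelled CD24hi. Every array was higher in RNA labelled Lgr5-GFP, with the dye swap of replicate 1 the lowest ratio. The mean was 1.13 ± 0.17 (SE, n = 2), 2.19-fold higher (adjusted p = 0.00475, limma), and 1.39 without that swap. Without the first array of replicate 1 Itgb5 was not called, at an adjusted p of 0.0799.

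Itgb1, the common partner of Itga2, Itga3 and Itga6, had 0.13, 0.22 and 0.05 (mean 0.13 ± 0.12 SE, n = 2; adjusted p = 0.409). Itgb4, the partner of Itga6 in hemidesmosomes, had -0.07, -0.13, -0.17 and -0.05 (mean -0.11 ± 0.12 SE; adjusted p = 0.504). Its other probes gave means of -0.18 and 0.29, of opposite sign. The difference between the ratios of Itga6 and Itgb4 was not tested. Itgb3 and Itgb6 had means of -0.44 and -0.31 (adjusted p = 0.0605 and 0.0894), and both were called lower without the dye swap of replicate 1, at 0.028 and 0.046. Itgb6, like Itgb4 and Itga7, had probes of opposite sign.

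Set beside their receptors, the matrix chains had 9 of 23 tested members called (6 higher and 3 lower, 39.1%) and the integrins 4 of 15 (3 higher and 1 lower, 26.7%), both under the 47.2% of all genes. The medians were 0.01 for the matrix chains and -0.03 for the integrins, against -0.07 for all genes. The sign of the matrix median turned under other normalizations, in which the all-gene median fell too. The matrix median was -0.10 from processed signals, -0.11 from the deposited log2 table and -0.16 with median centring. For all genes it was -0.16, -0.17 and -0.25 in the same order. The values of the matrix chains ranged from -1.24 to 3.48 and those of the integrins from -1.53 to 1.13. At least 2-fold the same way in both replicates were 4 matrix chains (Col8a1, Lamb1, Col18a1 and Col16a1) and 1 integrin (Itga6). These were 17.4% of the matrix chains tested and 6.67% of the integrins, against 12% of all genes. The difference between both classes was not tested.

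**Figure D3:**
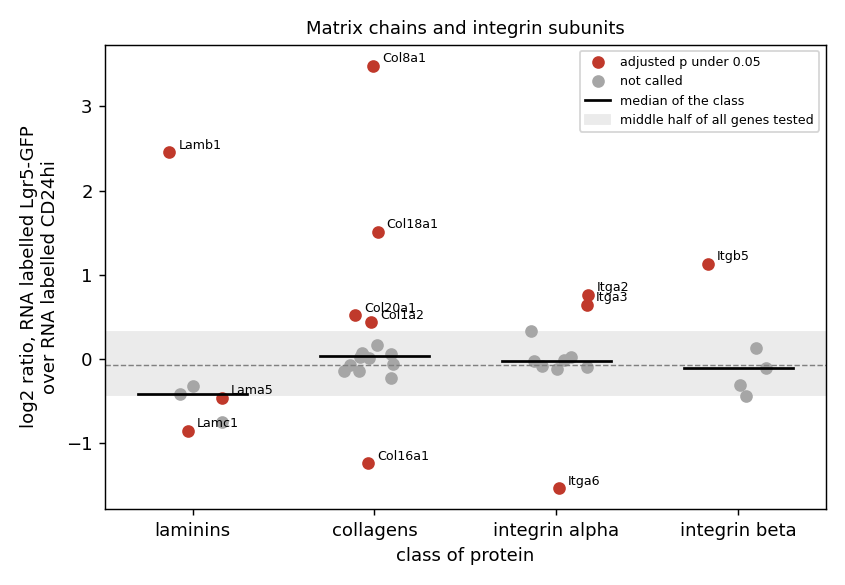
Mean log2 ratio of 2 replicates (y axis) of the laminins, collagens and integrin subunits tested, with 1 left out (x axis); red points passed an adjusted p under 0.05, black lines are medians of each whole class and the grey band holds the middle 50% of all genes tested. Col8a1 at 3.48 and Lamb1 at 2.45 lie above every integrin, and Itga6 at -1.53 lies below every matrix chain.

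Of the 6 genes that share only the start of the name, 3 were tested and 1 was called (33.3%, against 47.2% of all genes). Itgb1bp1, a cytoplasmic binder of the Itgb1 tail, had 0.85, 0.63 and 0.72 (mean 0.76 ± 0.13 SE, n = 2; adjusted p = 0.00597, limma), all arrays higher in RNA labelled Lgr5-GFP. Cert1, a ceramide carrier, had 0.14, -0.11, -0.0023 and 0.52 (adjusted p = 0.429). Itgb3bp, a centromere protein, had -0.76, -0.27, -0.21 and -0.19 (mean -0.36; adjusted p = 0.0842) and was called lower without the dye swap of replicate 1, at 0.0313.

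The partners of laminin and collagen in the basement membrane (17 genes on the array, 10 tested) had 3 higher and 5 lower in RNA labelled Lgr5-GFP (80% called, against 47.2% of all genes), and a median of -0.40. Smoc2, a calcium-binding matrix protein, had -3.05, -2.46 and -2.56 (mean -2.78; adjusted p = 0.000647, limma), and Tinag, a basement membrane antigen, -2.43, -2.41 and -2.39 (mean -2.42; adjusted p = 0.000638). Both were low on every array. Tinagl1, a relative of Tinag, ran the other way with 2.01, 0.68, 2.13 and 1.87 (mean 1.67; adjusted p = 0.00189). Nid2, which links laminin to type IV collagen, had -1.35, -0.71 and -0.93 (mean -1.09, limma adjusted p = 0.00456). Its ratio ran from -3.70 to -0.73 over the alternative settings. Nid2 and Pxdn, also called lower, were above background on 0 of 3 arrays in RNA labelled Lgr5-GFP and 3 in RNA labelled CD24hi. Both thus passed only through the RNA where they were high. Fras1 had -0.12 and was not called.

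Of 32 genes that make, fold or crosslink collagen, 19 were tested, 10 were higher and 1 lower (57.9% called, against 47.2% of all genes), with a median of 0.49. P4ha2, a prolyl hydroxylase, had 3.08, 0.999, 2.71 and 3.04 (mean 2.46; adjusted p = 0.00107), P3h4, a partner of lysyl hydroxylation, 2.58, 2.24 and 2.38 (mean 2.44; adjusted p = 0.000638), and Mia3, which exports collagen from the endoplasmic reticulum, 2.22, 2.31 and 2.30 (mean 2.26; adjusted p = 0.000638; limma). These 3 were high on every array with a value. The gene that was lower was Tgm2, a transglutaminase, with -2.96, -2.34 and -2.21 (mean -2.61; adjusted p = 0.000785). Plod1 and Adamts3, also called higher, were above background on 3 arrays in RNA labelled Lgr5-GFP. In RNA labelled CD24hi they were so on 1 and 0 arrays. Both thus passed only through the RNA where they were high. Crtap had a mean of 0.32 and was not called.

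Inside the cell, 31 of 37 genes of the integrin adhesion complex were tested, 7 higher and 5 lower, with a median of 0.01 (38.7% called, against 47.2% of all genes). Flna, an actin crosslinker that binds integrin tails, had -2.51, -2.43 and -2.49 (mean -2.48; adjusted p = 0.000621, limma) and lay low on every array. Tln2, which activates integrins, had a mean of -1.04 (adjusted p = 0.00216) and was not called in 4 of 12 alternative settings, with ratios from -1.33 to -0.13 and a highest adjusted p of 0.516. Zyx had a mean of -0.83 and Ilk, which joins integrin tails to actin, of 0.82 (adjusted p = 0.00406 and 0.00926). Plec, the link of Itgb4 to keratin, had 0.60 and was not called.

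Of 14 other matrix receptors 10 were tested, 3 higher and 4 lower (70% called, against 47.2% of all genes), with a median of -0.08. Sdc4, a heparan sulfate receptor, had -1.58, -1.62, -1.31 and -1.20 (mean -1.43; adjusted p = 0.00143), and Cd44, the hyaluronan receptor, -0.96, -1.54, -1.04 and -1.50 (mean -1.26; adjusted p = 0.00131; limma). Rpsa, a ribosomal protein also known as a laminin receptor, had a mean of -1.37, and Scarb2, a lysosomal membrane protein, 1.47 (adjusted p = 0.00353 and 0.00237). Bcam, also called lower, was above background on 1 array in RNA labelled Lgr5-GFP and 3 in RNA labelled CD24hi. It thus passed only through the RNA where it was high. Sdc1 had -0.16 and was not called, with opposite signs in the 2 replicates. Among 28 proteases and inhibitors that act on matrix, 16 were tested, 6 higher and 4 lower (62.5% called, against 47.2% of all genes), with a median of 0.04. The highest was Mmp7, matrilysin, at 2.42 and 2.49 on the 2 arrays with a value (mean 2.46; adjusted p = 0.000621), followed by Timp2 at 1.32, Mmp15 at 1.22 and Plaur at 1.18 (adjusted p = 0.00759, 0.00161 and 0.00353). Timp3 and Plat, both called lower, were above background on 2 arrays in RNA labelled Lgr5-GFP and 3 in RNA labelled CD24hi. They too passed only through the RNA where they were high. Adam17 had 0.23 and was not called.

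**Figure D4:**
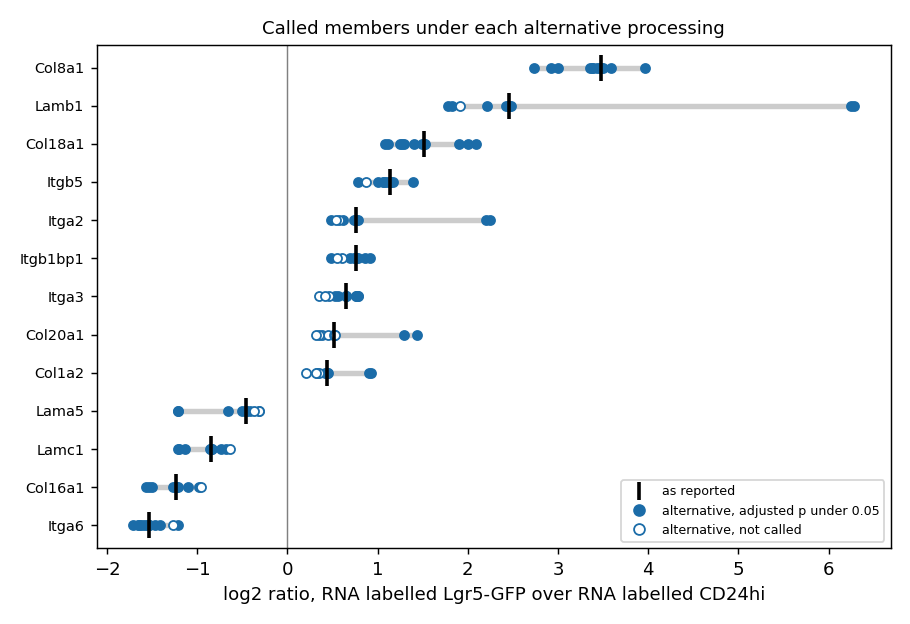
Log2 ratio of the called members, with 1 of 14 left out (y axis), as reported (black bar) and under each alternative setting (points; open where the adjusted p was not under 0.05). Col8a1 and Col18a1 are filled throughout, no member crosses zero, and Col1a2 and Col20a1 have several open points.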

How the data were processed

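RNA from both populations was extracted with Trizol, and 300 ng was amplified and labelled, per the labels' protocols. The intensity values were deposited as Feature Extraction 10.5.1.1 scanner output with mm9 probe positions, per the file headers. A deposited table holds log2 ratios of red over green, with no normalization named in the sources used here; its arrays had medians from -0.01 to 0.03.

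Spots marked non-uniform or as outliers were left out. Mean signals were background-corrected with normexp (offset 50), fitted without spots of non-uniform local background, and loess-normalized within arrays (limma 3.58.1, R 4.3.3). A probe was kept if well above background on every array with a value in at least 1 RNA. The brightest kept probe stood for a gene. Ratios were turned to RNA labelled Lgr5-GFP over CD24hi, and an array and its dye swap were averaged. For most members tested the dye swap of replicate 1 had no value. Replicate 1 was then its first array alone, with the dyes not balanced. The 2 replicates were tested against 0 with limma and Benjamini-Hochberg adjustment over all genes. The fit was checked on simulated data.

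Named were, per class, up to 6 called members by size, members above background on no array of 1 RNA and on all of the other, and up to 3 not called; per pathway list, 4 called and 1 not called. 1 called member and 1 marker gene are not reported here. Other members and list genes were named after their values were seen. Members and lists were chosen with earlier results of these data known; Col29a1 was added to its class after the files were seen. Gene names were updated by accession for 27041 gene spots; 16338 kept the file's name.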

Additional observations from a re-analysis of the deposited data

How the results depend on the processing

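With normexp fitted on all spots, 3 members were called, 3 higher and 0 lower, and 2 were at least 2-fold in both replicates; limma then called 8.78% of all genes, and 10 members had an unadjusted p under 0.05. With marked spots kept 8 were called, 5 of them higher, which is 19.5% against 25.2% of all genes. Members lower in RNA labelled Lgr5-GFP numbered 7 from processed signals, 7 from the deposited log2 table and 10 with median centring. Of all 14802 genes, 4234, 4246 and 5426 were lower in these settings, against 3780 in the main setting. At least 2-fold were 10 members from processed signals and 8 from the deposited table (21.3% and 21.1% of all genes), counts added after seeing the data. The matrix median was -0.10 from processed signals, -0.11 from the deposited table, -0.16 with median centring and -0.039 with marked spots kept. The integrin median was -0.22, -0.14, -0.16 and -0.048 in the same order, 0.027 without a filter on dim probes, -0.082 with probes above background in both RNAs and 0.0021 with the mean of kept probes. The all-gene median in the order of these integrin values was -0.16, -0.17, -0.25, -0.084, -0.00035, -0.035 and -0.055.

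Leaving out 1 array at a time, between 3 and 21 members were called, 2 to 11 higher and 1 to 10 lower, and 2 to 6 were at least 2-fold. Of all genes in those fits, 16.3% to 57.7% were called and 6.58% to 14.7% were at least 2-fold. The matrix median then ranged from 0.0017 to 2.06 and the integrin median from -0.044 to -0.011, with all-gene medians from -0.068 to -0.024. The values 2.06 and -0.011 came without the first array of replicate 1. They rest on 2 matrix chains (Col18a1 and Col8a1) and 5 integrins. Without replicate 1 the matrix median was -0.042. The cause of these differences was not tested, beyond the fewer genes tested without an array. Of 168 tests of the 14 called members under alternatives, 142 kept the call and 26 lost it, and none changed sign. With 2 replicates and 1 residual degree of freedom, most of the error estimate is shared across genes.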
